A study of Homo sapiens with 12 samples.

Results

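The interferon regulatory factors (IRFs) and the signal transducers and activators of transcription (STATs) are DNA-binding proteins that carry cytokine and interferon signals into the nucleus. The genes described here were IRF1, IRF2, IRF3, IRF7, IRF9, STAT2, STAT3, STAT5A and STAT6, and their members were all array probes that the gene table lists with only 1 of these genes. Of the 9 genes, 8 had such a probe, with 10 probes in all among 54359 on the array. The IRF2 probe carried the missing-value code on all 12 arrays and STAT2 had no probe of its own in the gene table used here, so neither was analysed here. The remaining 9 probes measured 7 genes, of 18106 genes measured in the series, and had a value on all 12 arrays. IRF1 and STAT3 had 2 probes each.

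The cells were T-HESC, a single line of human endometrial stromal cells made immortal with telomerase and kept in puromycin. Cultures received TNFα at 5 ng/ml together with IL1β at 1 ng/ml (TNF+IL1), TNFα alone (TNF), IL1β alone (IL1) or vehicle, for 48 h after 24 h without serum. Each group held 3 cultures at passage 13 (replicate 1), passage 28 (replicate 2) and passage 15 (replicate 3), each hybridised to its own single-colour CodeLink array. The replicates were passages of 1 line and not separate donors. The p-values therefore measure the spread between cultures of this line and their arrays within a group, and not between donors. The question was which of these factors changed in RNA level with either cytokine or with both.

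TNFα and IL1β signal first through nuclear factor kappa B (NF-kB) and stress kinases. IRF1 is known as a gene that NF-kB switches on, and it drives antigen processing and chemokine genes. IRF3 and IRF7 are switched on by phosphorylation and drive interferon genes; IRF7 is itself an interferon-stimulated gene. IRF9 is the DNA-binding subunit of the complex called ISGF3, which also holds STAT2 and binds interferon-stimulated genes. STAT3 is activated by the interleukin 6 family, STAT5A by prolactin, growth hormone and several interleukins, and STAT6 by interleukins 4 and 13. In endometrial stroma, STAT3 and STAT5 are known for their part in decidualisation, the change of stromal cells that prepares the lining for implantation. STAT activity depends largely on phosphorylation, which arrays of RNA do not measure.

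Promoter sequences from RefSeq (GRCh38.p14) were given for 6 of the 9 genes, 8 promoters in all, since STAT5A had 3, 2 of which overlap. IRF2, IRF3 and IRF7 had no promoter entry, so the counts below do not cover them. Both strands of each window, 250 bases before to 50 bases after the start, were searched for a STAT site (GAS, TTCNNNGAA), the core of an interferon response element (GAAA and GAAA with 2 bases between) and a kappa B site (GGG and CC with 5 bases between). The GAS letters were found in 2 of the 8 promoters, those of IRF1 and IRF9, and in 7.66% of all 35116 promoters of the same length. The interferon response core was found in 0 of the 8 promoters and in 3.57% of all. The kappa B letters were found in 8 of 8, but also in 58.7% of all promoters. The 250 bases before the start of the pair with a GAS match, and of STAT3, which has none, are printed below 5′ to 3′ on the strand of the gene, with all matches in capitals.
IRF1 (chr5:132490774-132491023, minus strand): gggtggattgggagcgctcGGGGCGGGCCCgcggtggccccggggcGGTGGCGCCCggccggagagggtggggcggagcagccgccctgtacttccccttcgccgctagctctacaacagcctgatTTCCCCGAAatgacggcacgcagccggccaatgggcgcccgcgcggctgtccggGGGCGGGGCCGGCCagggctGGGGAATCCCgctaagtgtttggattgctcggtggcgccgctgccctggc
IRF9 (chr14:24161015-24161264, plus strand): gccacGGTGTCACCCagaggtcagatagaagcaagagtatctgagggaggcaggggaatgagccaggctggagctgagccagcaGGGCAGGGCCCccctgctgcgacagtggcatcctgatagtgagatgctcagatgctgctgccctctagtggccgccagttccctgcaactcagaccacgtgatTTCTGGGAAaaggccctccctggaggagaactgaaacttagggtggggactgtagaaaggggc
STAT3 (chr17:42388443-42388692, minus strand): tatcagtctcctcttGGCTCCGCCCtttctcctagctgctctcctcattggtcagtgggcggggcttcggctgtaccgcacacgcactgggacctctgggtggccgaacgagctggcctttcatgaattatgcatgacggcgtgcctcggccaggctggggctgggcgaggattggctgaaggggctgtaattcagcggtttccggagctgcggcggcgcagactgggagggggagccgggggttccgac
In IRF1 the GAS match TTCCCCGAA lay at positions -124 to -116 from the start. The IRF1 promoter also had 6 kappa B matches, some of which overlap, and the one nearest the start, GGGGAATCCC, lay at -50 to -41. In IRF9 the GAS match TTCTGGGAA lay at -63 to -55, beside 3 kappa B matches. STAT3 had 1 kappa B match, at -235 to -226 on the opposite strand. A match of letters describes the sequence and shows no binding.

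In the whole series 53671 probes were tested, and the number with a signal above 0 was 52944 to 53507 by array. Values are log2 of the deposited intensities, and 0 lies near the median probe of each array. Principal component 1 held 22.6% of the variance. Vehicle replicate 3 lay farthest out on it (score 171), next to which came TNF replicate 3 (68.7) and IL1 replicate 2 (53.0); these are the 3 outlying arrays below, while the other 9 arrays lay between -84.8 and -18.2. All 12 measured stromal markers of 15 lay above the median probe, whereas 2 of 10 leukocyte markers did. These were CD68 (74.9th percentile) and CD3E (60.1th), while PTPRC, the pan-leukocyte marker, lay at the 0.85th percentile. Of 8 measured epithelial markers 5 lay above the median probe, with KRT19 at the 97.0th percentile. Of 6 endothelial markers 2 did, with PECAM1 at the 87.7th percentile. The summed linear signal of the leukocyte markers was 7.40 to 11.5 on treated arrays and 7.25 to 10.6 on vehicle arrays. Of 9 measured genes known to answer TNFα or IL1β through NF-kB, 6 rose with TNF+IL1, 2 with TNF and 1 with IL1, and 0 fell. The 6 with TNF+IL1 were CXCL2 (log2 difference 6.52), CXCL8 (4.87), SOD2, TNFAIP3 (3.16), IL6 and CCL2 (2.81), while RELB, NFKB2 and ICAM1 were not called in any group and ICAM1 stood at -0.21 with TNF+IL1. SOD2, a mitochondrial superoxide dismutase, rose by 4.77 ± 0.29 with TNF+IL1, 3.96 ± 0.29 with TNF and 3.49 ± 0.29 with IL1 (log2 difference from vehicle ± SE, n = 3 each, limma adjusted p = 0.000518, 0.00319 and 0.0123). With the 3 outlying arrays left out, SOD2 was not called with TNF (3.94, adjusted p = 0.0866) or with IL1 (3.63, adjusted p = 0.161). ACTB and GAPDH differed from vehicle by -0.29 to -0.01 in the 3 groups, with limma adjusted p of 0.458 or above. A change in RNA per cell and a change in the share of cells that express a gene cannot be told apart in cultures measured whole.

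IRF7 RNA read higher in both groups that received TNFα. Its log2 level was 3.82, 3.65 and 4.02 on the TNF+IL1 arrays (replicates 1, 2 and 3), 3.95, 3.01 and 3.15 on the TNF arrays, 2.87, 2.02 and 2.76 on the IL1 arrays and 2.48, 2.23 and 1.48 on the vehicle arrays. All 6 arrays with TNFα lay above all 6 arrays without it, a separation in this direction that 0.373% of the tested probes showed. The group means were 3.83 ± 0.18 in TNF+IL1, 3.37 ± 0.51 in TNF, 2.55 ± 0.46 in IL1 and 2.06 ± 0.52 in vehicle (SD, n = 3 each). In that order, the neighbours TNF+IL1 and TNF overlapped, as did IL1 and vehicle, while TNF and IL1 did not.

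The difference from vehicle was 1.76 ± 0.35 for TNF+IL1 (log2 ± SE; 95% interval 0.99 to 2.54), a fold of 3.40. It did not pass the threshold of adjusted p under 0.05, with a limma adjusted p = 0.0926. With TNF the difference was 1.31 ± 0.35 (interval 0.53 to 2.08; limma adjusted p = 0.400), and with IL1 it was 0.48 ± 0.35 (interval -0.29 to 1.26; adjusted p = 0.690). The effect of TNFα averaged over presence and absence of IL1β was 1.29 ± 0.25 (limma adjusted p = 0.136), and 0.578% of tested probes had a more positive value. The test of whether the cytokines combined otherwise than additively gave -0.02 ± 0.49 (interval -1.12 to 1.07) for IRF7.

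Each passage showed the same direction for TNF+IL1 and for TNF against vehicle. TNF+IL1 minus vehicle was 1.34, 1.42 and 2.53 at passages 13, 28 and 15, and TNF minus vehicle was 1.47, 0.78 and 1.67. IL1 minus vehicle was 0.39, -0.21 and 1.27, so its sign differed between passages. The value at passage 15 used vehicle replicate 3, the array that lay farthest out and gave the lowest IRF7 level. Without that array the IRF7 difference was 1.48 for TNF+IL1 and 1.02 for TNF (limma adjusted p = 0.118 and 0.312), and without the 3 outlying arrays 1.48 and 1.13 (adjusted p = 0.0798 and 0.336).

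**Figure D1:**
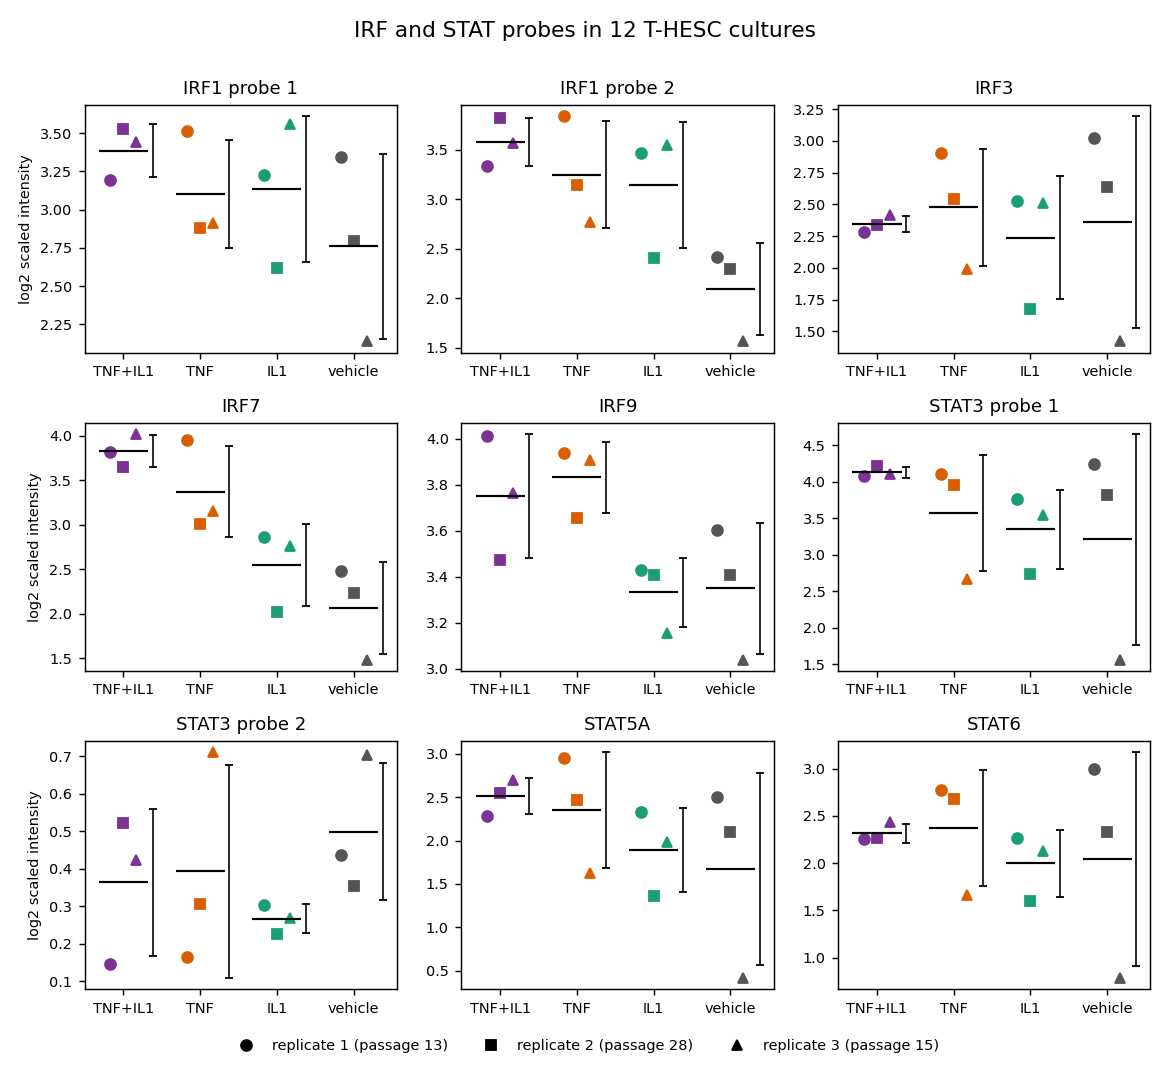
Log2 of the deposited intensity (y axis, labelled scaled intensity) of the 9 IRF and STAT probes on 12 arrays by group (x axis). The marker gives the replicate, a horizontal line the group mean and a bar 1 SD (n = 3). The IRF7 points of TNF+IL1 and TNF all lie above 3.00 and those of IL1 and vehicle below it, and the lowest point is vehicle replicate 3 in every panel, IRF7 included, except STAT3 probe 2.

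IRF1 was measured by 2 probes, and probe 2 read higher on all arrays with TNFα than on vehicle arrays. This probe, listed with the transcript record BM929354, read 3.34, 3.82 and 3.57 on the TNF+IL1 arrays, 3.84, 3.14 and 2.77 on the TNF arrays, 3.47, 2.41 and 3.55 on the IL1 arrays and 2.42, 2.30 and 1.56 on the vehicle arrays. Every TNF+IL1 and TNF array lay above every vehicle array, and 1 IL1 array, replicate 2, lay within the vehicle range. The difference from vehicle was 1.48 ± 0.38 with TNF+IL1, 1.16 ± 0.38 with TNF and 1.05 ± 0.38 with IL1 (log2 ± SE, n = 3 each). The limma adjusted p-values were 0.174, 0.552 and 0.448, so none passed. IRF1 probe 2 was higher than vehicle at each passage in all 3 groups, by 0.92 to 2.01 with TNF+IL1, 0.84 to 1.42 with TNF and 0.11 to 1.99 with IL1. TNF and IL1 arrays differed from each other by 0.11 ± 0.38 (interval -0.75 to 0.96).

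IRF1 probe 1, listed with the reference transcript NM_002198, read 3.19, 3.53 and 3.44 on the TNF+IL1 arrays, 3.51, 2.88 and 2.92 on the TNF arrays, 3.23, 2.62 and 3.56 on the IL1 arrays and 3.35, 2.79 and 2.14 on the vehicle arrays. Each treated group overlapped the vehicle group. Its differences from vehicle were 0.63 ± 0.34, 0.34 ± 0.34 and 0.37 ± 0.34 for TNF+IL1, TNF and IL1, with limma adjusted p of 0.476, 0.919 and 0.764. The intervals of the 2 probes overlap, and the difference between their responses was not tested. The GAS and kappa B letters in the IRF1 promoter printed above belong to both probes, since they report the same gene.

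IRF9, the DNA-binding subunit of ISGF3, read higher on TNF arrays than on vehicle arrays, by less than IRF7 did, and the difference did not pass the test. Its level was 4.01, 3.47 and 3.77 on the TNF+IL1 arrays, 3.94, 3.66 and 3.91 on the TNF arrays, 3.43, 3.41 and 3.16 on the IL1 arrays and 3.60, 3.41 and 3.04 on the vehicle arrays. The TNF arrays lay above all vehicle and all IL1 arrays, the TNF+IL1 arrays lay above all IL1 arrays, and TNF+IL1 and vehicle overlapped because vehicle replicate 1 lay above TNF+IL1 replicate 2. The difference from vehicle was 0.40 ± 0.21 with TNF+IL1, 0.48 ± 0.21 with TNF and -0.02 ± 0.21 with IL1 (log2 ± SE; limma adjusted p = 0.466, 0.703 and 0.987). TNF minus IL1 was 0.50 ± 0.21 (limma adjusted p = 0.913). The effect of TNFα averaged over IL1β was 0.45 ± 0.15 (limma adjusted p = 0.507). Within passages 13, 28 and 15, TNF minus vehicle was 0.33, 0.25 and 0.87.

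IRF3, which is known to be regulated mainly on the protein, showed no difference that could be told from the spread. It read 2.29, 2.34 and 2.42 on the TNF+IL1 arrays, 2.90, 2.54 and 1.99 on the TNF arrays, 2.52, 1.68 and 2.51 on the IL1 arrays and 3.02, 2.64 and 1.42 on the vehicle arrays. All groups overlapped with vehicle. The differences were -0.01 ± 0.41, 0.12 ± 0.41 and -0.12 ± 0.41 for TNF+IL1, TNF and IL1, with limma adjusted p of 0.949 or above. The 95% interval for TNF+IL1, -0.93 to 0.91, leaves room for a change of almost that size either way.

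STAT3 probe 1 read 4.07, 4.21 and 4.10 on the TNF+IL1 arrays, 4.10, 3.95 and 2.66 on the TNF arrays, 3.76, 2.74 and 3.54 on the IL1 arrays and 4.24, 3.81 and 1.56 on the vehicle arrays. The SD was 0.07 in TNF+IL1 and 1.44 in vehicle, where 1 array lay far below the others, and all 3 treated groups overlapped with vehicle. The difference from vehicle was 0.92 ± 0.64 with TNF+IL1, 0.36 ± 0.64 with TNF and 0.14 ± 0.64 with IL1 (log2 ± SE; limma adjusted p = 0.583, 0.971 and 0.965). These values depended on that vehicle array, replicate 3. Without it the difference was 0.10 with TNF+IL1 and -0.46 with TNF. Over the alternative fits given at the end, the highest values were 1.47 and 0.88, and IL1 ranged from -0.78 to 0.75. STAT3 probe 2, listed with the record H42926, lay at the 54.5th percentile of signal, and its 12 values lay between 0.15 and 0.71. Its differences from vehicle were -0.14 ± 0.20, -0.11 ± 0.20 and -0.23 ± 0.20 (adjusted p = 0.825, 0.975 and 0.744). With all 12 arrays used, these were opposite in sign to those of probe 1 in all 3 groups. The 3 IL1 arrays of probe 2 lay below the 3 vehicle arrays, as they did for 9.96% of tested probes.

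STAT5A and STAT6 were low on the same vehicle array as STAT3 probe 1. STAT5A, a mediator of prolactin signals, read 2.29, 2.55 and 2.70 on the TNF+IL1 arrays, 2.95, 2.46 and 1.63 on the TNF arrays, 2.33, 1.36 and 1.98 on the IL1 arrays and 2.51, 2.09 and 0.42 on the vehicle arrays. Its differences from vehicle were 0.84 ± 0.53, 0.67 ± 0.53 and 0.22 ± 0.53 (TNF+IL1, TNF and IL1; limma adjusted p = 0.538, 0.874 and 0.923). STAT6, the mediator of interleukin 4 signals, read 2.25, 2.27 and 2.43 on the TNF+IL1 arrays, 2.77, 2.67 and 1.67 on the TNF arrays, 2.26, 1.60 and 2.13 on the IL1 arrays and 2.99, 2.33 and 0.79 on the vehicle arrays. Its differences from vehicle were 0.28 ± 0.51, 0.33 ± 0.51 and -0.04 ± 0.51 (limma adjusted p = 0.865, 0.963 and 0.987). All groups overlapped with vehicle for both genes. Over the alternative fits given at the end, STAT5A ranged from 0.12 to 1.37 with TNF+IL1 and from 0.05 to 1.09 with TNF. STAT6 ranged from -0.41 to 0.79 and from -0.29 to 0.81 in the same groups, so its sign was not stable.

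The 3 outlying arrays were the lowest of 12 for 4 of the 9 probes. IRF3, STAT3 probe 1, STAT5A and STAT6 each read lower on vehicle replicate 3, TNF replicate 3 and IL1 replicate 2 than on any of the other 9 arrays, as did 8.34% of all tested probes. STAT3 probe 1 was 1.56, 2.66 and 2.74 on those arrays and 3.54 to 4.24 on the other 9. Vehicle replicate 3 was the lowest of 12 for 8 of the 9 probes, the exception being STAT3 probe 2, and for 17.6% of the 48012 probes with 12 values. IRF7 and IRF9 were not low on TNF replicate 3, at 3.15 and 3.91. On the outlying arrays without TNFα, vehicle replicate 3 (1.48) and IL1 replicate 2 (2.02), IRF7 was lower than on any of the other 9 arrays (2.23 or above). What set these 3 arrays apart was not tested.

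**Figure D2:**
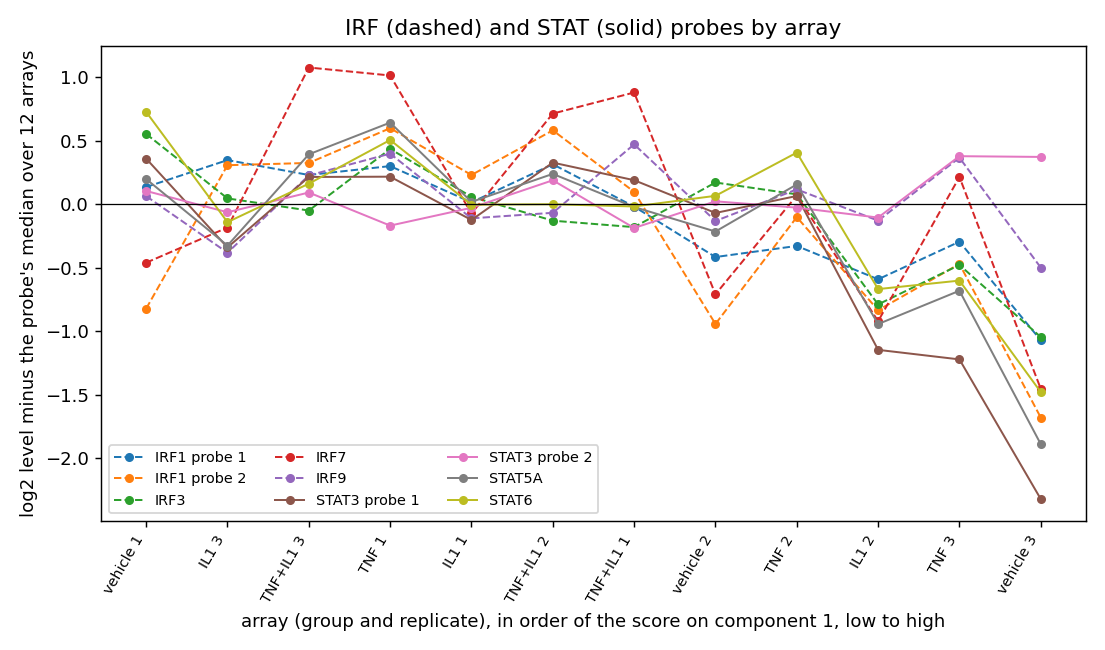
Level of each IRF (dashed) and STAT (solid) probe minus its median over 12 arrays (y axis, log2), with arrays ordered by their score on the first principal component (x axis). The lines of IRF3, STAT3 probe 1, STAT5A and STAT6 drop together on IL1 replicate 2, TNF replicate 3 and vehicle replicate 3, and the IRF7 line peaks on arrays with TNFα.

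No member probe passed the adjusted threshold in any of the 9 comparisons fitted, nor in the F test over the groups. Against vehicle this was 0 of 9 probes with TNF+IL1 (0.248% of all tested probes were called), 0 of 9 with TNF (0.0466%) and 0 of 9 with IL1 (0.00559%). It was 0 of 9 for TNF+IL1 minus TNF (0.00186%), TNF+IL1 minus IL1 (0%), TNF minus IL1 (0%), the averaged effects of TNFα (0.0801%) and IL1β (0.0112%), the interaction (0%) and the F test (0.0783%). At an unadjusted limma p under 0.05 there were 2 of 9 with TNF+IL1 (12.9% of all probes), 3 of 9 with TNF (7.05%) and 1 of 9 with IL1 (9.67%). The members past it were IRF1 probe 2 and IRF7 with TNF+IL1, these and IRF9 with TNF, and IRF1 probe 2 with IL1. The arrays did not overlap and were higher than vehicle for 2 of 9 probes with TNF+IL1 (7.02% of all probes), 3 of 9 with TNF (3.72%) and 0 of 9 with IL1 (3.53%). The median difference from vehicle over the 9 probes was 0.63, 0.36 and 0.14, beside -0.13, -0.05 and -0.13 over all probes tested. Vehicle replicate 3, an outlying array, enters each of these differences and gave the lowest value for most member probes. It did so for 17.6% of all probes with a value on every array. Medians without that array were not computed.

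Differences between treated groups were also below the threshold for all 9 probes. TNF+IL1 minus IL1 was 1.28 ± 0.35 for IRF7 (limma adjusted p = 0.853). It separated the arrays for IRF7, IRF9 and STAT3 probe 1, 3 of 9 probes, beside 8.09% of all probes. TNF minus IL1 was 0.82 ± 0.35 for IRF7 (limma adjusted p = 0.913), and it separated the arrays for IRF7 and IRF9, 2 of 9 beside 10.8%. TNF+IL1 minus TNF was 0.46 ± 0.35 for IRF7 (interval -0.32 to 1.23) and 0.33 ± 0.38 for IRF1 probe 2 (interval -0.53 to 1.18), and no member was separated upward, beside 6.5% of all probes.

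**Figure D3:**
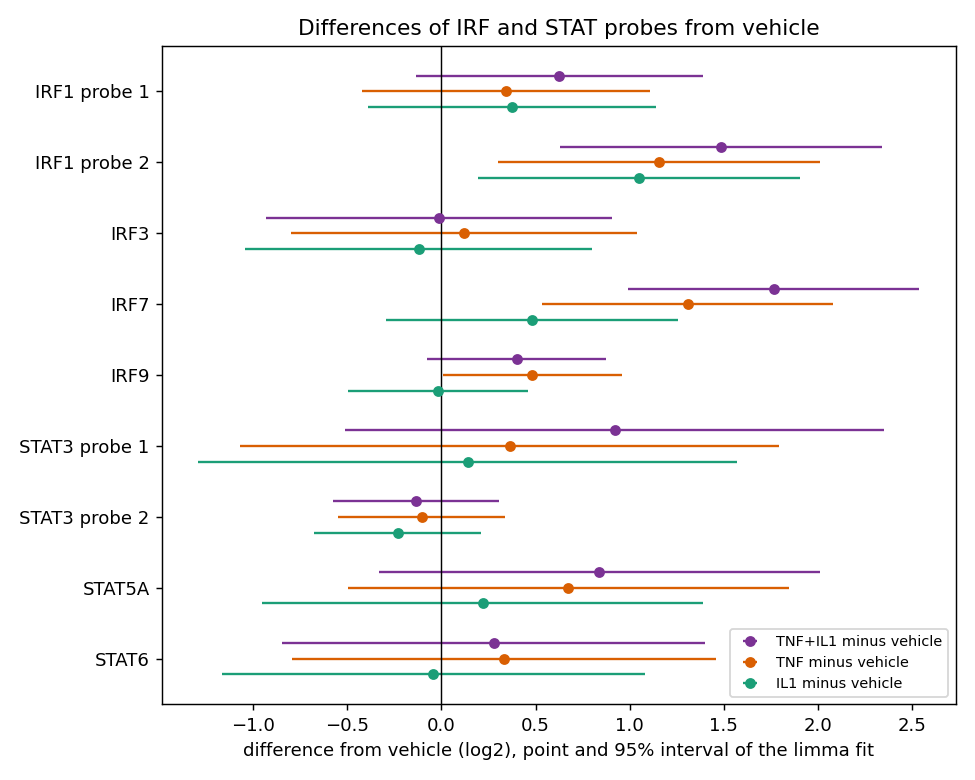
Log2 difference from vehicle (x axis) with its 95% interval from limma for TNF+IL1, TNF and IL1, for each IRF and STAT probe (y axis). The intervals, which are unadjusted, lie above 0 for IRF7 with TNF+IL1 and TNF, for IRF1 probe 2 in all 3 groups and for IRF9 with TNF, whereas all intervals of IRF3, STAT3, STAT5A and STAT6 include 0.

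The other members of the families, the ligands that feed them and the inhibitors that restrain them showed few changes. Of the other family genes, IRF4, IRF5, IRF8, STAT4 and STAT5B were measured, 5 of 7 listed, and 0 were called against vehicle in any group. STAT5B, a near copy of STAT5A whose probe could share its signal, was 0.43 ± 0.51 with TNF+IL1 (limma adjusted p = 0.775). Of 23 measured ligands, IL6 alone was called: interleukin 6, an activator of STAT3, rose by 3.00 ± 0.38 with TNF+IL1 (limma adjusted p = 0.0134), to 5.80 ± 0.39 in TNF+IL1 against 2.81 ± 0.62 in vehicle (SD, n = 3 each).

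Of 23 measured receptors 0 were called. The lowest p-values belonged to IL15RA, a chain of the interleukin 15 receptor, at 1.87 ± 0.36 with TNF+IL1 (limma adjusted p = 0.0862), and IFNAR2, a chain of the type I interferon receptor, at 1.23 ± 0.23 with TNF (adjusted p = 0.162). IFNAR2 averaged 3.21 ± 0.13 in TNF+IL1, 3.29 ± 0.42 in TNF, 2.43 ± 0.03 in IL1 and 2.06 ± 0.24 in vehicle, and all 6 arrays with TNFα lay above all 6 without it, as for IRF7. Of 18 measured kinases, sensors and adaptors 0 were called. TRAF3, an adaptor upstream of IRF3 and IRF7, was 2.29 ± 0.46 with TNF+IL1 (adjusted p = 0.0956), and IFIH1, an RNA sensor, was 1.50 ± 0.34 with TNF (adjusted p = 0.296). Of 21 measured inhibitors 0 were called, the lowest p being that of PIAS2, at -0.68 ± 0.20 with TNF+IL1 (adjusted p = 0.215).

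Some known target genes of these factors changed where the factors did not pass the test. Of 34 measured genes known as targets of ISGF3, 5 rose with TNF+IL1, 1 with TNF and 0 with IL1, and 0 fell. Over 18106 genes, 0.348%, 0.0773% and 0.011% were called in the same comparisons in either direction. The list medians were 0.56, 0.56 and -0.01, beside -0.10, -0.02 and -0.15 over all genes. BST2, a surface protein that tethers viruses, rose by 4.10 ± 0.39 with TNF+IL1 and 3.09 ± 0.39 with TNF (limma adjusted p = 0.00470 and 0.0353); its level was 3.39 ± 0.14 in TNF+IL1, 2.38 ± 0.57 in TNF, 0.47 ± 0.68 in IL1 and -0.71 ± 0.45 in vehicle. IFI44L rose by 3.78 ± 0.61, IFI27 by 3.61 ± 0.51, EPSTI1 by 2.53 ± 0.30 and ISG20 by 1.93 ± 0.28 with TNF+IL1 (adjusted p = 0.0447, 0.0252, 0.00992 and 0.0284). ISG20 fell outside the rule for naming genes and was named after its values were seen. For 7 of the 34 genes all 6 arrays with TNFα lay above all 6 without it, as for IRF7, beside 0.373% of all probes. That share includes probes without a gene, and the share over 1 probe per gene was not computed. The ISGF3 counts depended on the arrays used: with the 3 outlying arrays left out, 1 gene was called with TNF+IL1 and 0 with TNF.

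Of 27 measured genes known as IRF1 targets, 3 rose with TNF+IL1, 2 with TNF and 0 with IL1, with list medians of 0.45, 0.46 and 0.11. CTSS, a protease of antigen processing, rose by 3.45 ± 0.30 with TNF+IL1 and by 3.38 ± 0.30 with TNF (limma adjusted p = 0.00282 and 0.00395). CCL5, a chemokine for T cells, rose by 5.54 ± 0.67 and 6.18 ± 0.67 in the same groups (adjusted p = 0.0164 and 0.0255), on 2 vehicle values because 1 was missing. LAP3, an aminopeptidase, rose by 1.81 ± 0.24 with TNF+IL1 (adjusted p = 0.0181). With IL1 the differences of CTSS, CCL5 and LAP3 were 2.19, 1.12 and 0.62 (limma adjusted p = 0.139, 0.621 and 0.463). With the 3 outlying arrays left out, 1 IRF1 target was called with TNF+IL1 and 0 with TNF.

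Of 19 measured STAT3 targets CEBPD alone was called: this C/EBP transcription factor rose by 2.47 ± 0.30 with TNF+IL1 (limma adjusted p = 0.0102), and it is also a gene that NF-kB controls. The CEBPD difference was 1.52 ± 0.30 with IL1 and 0.76 ± 0.30 with TNF (limma adjusted p = 0.289 and 0.640). Of 12 measured STAT5 targets and 15 measured STAT6 targets 0 were called in any group. The largest difference among STAT6 targets was that of CCL11, eotaxin, at 4.18 ± 1.00 with TNF+IL1 (adjusted p = 0.152). The median with TNF+IL1 was 0.22 for STAT3 targets, 0.09 for STAT5 targets and 0.03 for STAT6 targets. Among 8 measured epithelial markers KRT18, a keratin, fell by 1.58 with TNF+IL1 (adjusted p = 0.0447), and the summed linear signal of these markers was 26.9 to 108 on treated arrays and 87.9 to 122 on vehicle arrays; its part in the results above was not tested.

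**Figure D4:**
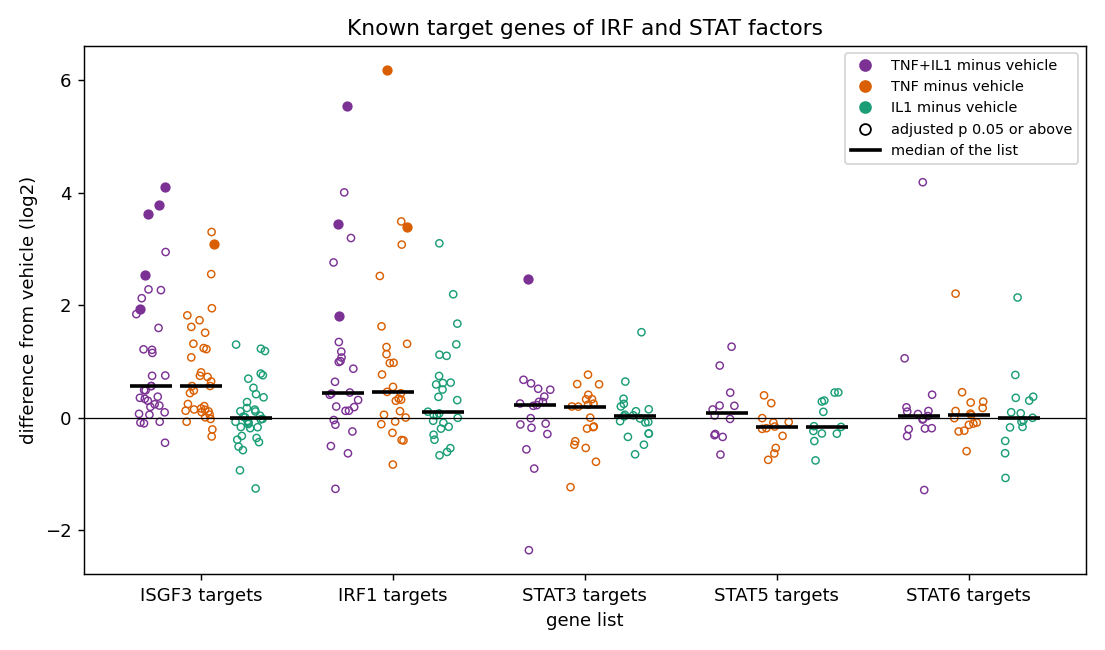
Log2 difference from vehicle (y axis) of genes known as targets of ISGF3, IRF1, STAT3, STAT5 and STAT6 (x axis), 1 point per gene, for TNF+IL1, TNF and IL1, with filled points for adjusted p under 0.05 and a bar for the list median. The filled points are ISGF3 and IRF1 targets that rose with TNF+IL1 or TNF, plus CEBPD among STAT3 targets.

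The 5 genes whose pattern over 12 arrays was most like that of IRF7, among 21595 probes with 12 values, were C1QTNF1 (Pearson r = 0.976), HLA-F (0.975), TNFAIP3 (0.966), HERC6 (0.964) and H2BC21 (0.958). HLA-F is a class I histocompatibility molecule, TNFAIP3 an inhibitor of NF-kB and HERC6 an interferon-stimulated gene. After group means were removed the same pairs gave 0.791 to 0.926, so these genes also shared differences between arrays of 1 group. For IRF1 probe 2 the most alike were GRIN2A (0.972), CD82 (0.961), ATF5 (0.953), IL15RA (0.952) and NRG1 (0.951). These are descriptions over 12 arrays that share treatments and array quality.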

How the data were processed

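The authors deposited linear intensities from single-colour arrays; their image analysis and normalization, not given in the sources used here, may include scaling to the array median, since array medians lay near 1. The missing-value code (0.716% of values) and values at or below 0 (1.1%) were set to missing, and log2 was taken of the deposited intensity. Array medians differed by at most 0.05 (log2), so no further scaling was applied. No deposited column was left unmapped. Probe genes came from the platform's gene table.

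A limma model (version 3.58.1, R 4.3.3) of the 4 group means, with 8 residual degrees of freedom before moderation and no block, was run on the 12 arrays for 53671 probes with at least 2 values in every group. Tests were two-sided with Benjamini-Hochberg adjustment over all probes, and a probe was called at adjusted p under 0.05. The number of arrays limits the precision. For a gene in a list, the brightest of its single-gene probes was taken. In simulated data limma recovered 8% of probes changed 2-fold and 54% of those changed 4-fold for TNF against vehicle, of 50 each. The changed probes were drawn at random from all tested probes. Noise had the residual SD of each probe and was independent, without differences shared by the probes of an array. These rates therefore do not describe the member probes.

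The members, gene lists and tests were chosen with earlier results of these data known. All members are named. Most other genes named were drawn from up to 4 called genes with the largest change per list and comparison with vehicle (or the lowest p), the 5 genes most alike the 2 probes with the lowest F-test p, the TNF receptors, ACTB and GAPDH. Which of these to describe was chosen after their values were seen. Outside that rule, the measured genes of the other-family and NF-kB lists were named, as were some cell type markers with their percentile of signal. TNFRSF1A and TNFRSF1B differed from vehicle by -0.19 to 1.14 (limma adjusted p of 0.348 or above).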

Additional observations from a re-analysis of the deposited data

How the results depend on the processing

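Over 27 alternatives the 81 member differences gave 2142 values, of which 1954 kept their direction and side of the threshold, 180 uncalled ones changed sign and 8, all of IRF7, passed the threshold. For TNF+IL1 against vehicle 1 member probe, IRF7, was called without dim probes (limma adjusted p = 0.0329), with a trended and robust prior (0.0404), with array weights (0.0294) and with the component 1 score as a covariate (0.0303). For the averaged effect of TNFα, IRF7 was the 1 member called under the same alternatives (0.0412, 0.0466, 0.0417 and 0.0393). The covariate fit and the fit without the 3 outlying arrays were chosen after seeing the data. The cause was not tested. IRF7 kept its direction throughout, at 1.38 to 1.98 for TNF+IL1 and 1.02 to 1.57 for TNF against vehicle. With the passage as a replicate block the IRF7 differences stayed at 1.76 and 1.31 (adjusted p = 0.106 and 0.416), and 0 member probes were called, while IFI44L, IFI27 and CCL5, and SOD2 with IL1, lost their calls. Replicate numbers are passages shared by the groups, but after removal of group means 18 same-passage pairs of arrays had a mean residual correlation of 0.0071 (-0.196 to 0.310), so on average the arrays did not vary together by passage. Named target calls were less stable: BST2 with TNF was called in 13 of 27 alternatives, IFI44L with TNF+IL1 in 9, and KRT18 in 11, and leaving out a single vehicle or TNF+IL1 array was enough to end each of these calls. Leaving out any 1 TNF+IL1 array also ended the calls of IFI27, CCL5, LAP3 and CEBPD with TNF+IL1 and of CCL5 with TNF, as did leaving out replicate 2 for EPSTI1 and replicate 1 or 3 for IL6. CCL5 with TNF was lost too without TNF replicate 1 or 3 or IL1 replicate 2, and IFI27 without vehicle replicate 2. SOD2 was called in 22 of 27 alternatives with TNF, in 18 with IL1 (adjusted p up to 0.537) and in 25 with TNF+IL1; leaving out vehicle replicate 1, vehicle replicate 2 or IL1 replicate 2 ended its call with IL1. The calls of CTSS with TNF+IL1 and TNF, and of BST2 with TNF+IL1, held without any single array. The count of ISGF3 targets called with TNF+IL1 ranged from 0 to 13. Over all probes the calls ranged from 4 to 1200 for TNF+IL1, 0 to 57 for TNF and 0 to 10 for IL1, beside 133, 25 and 3 as reported.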
